A study of Mus musculus with 10 samples.

Results

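Expression of 7 genes of metallothioneins and zinc handling was followed across the lens epithelium of TGF-β1-overexpressing mice. The genes were the metallothioneins Mt1, Mt2 and Mt3, the metal-responsive transcription factor Mtf1, the zinc exporter Slc30a1 and the zinc importers Slc39a10 and Slc39a14. They were taken by symbol from a table of 50763 genes, and all 7 passed the expression filter that left 11094 genes for testing. The members were chosen by what the same 10 libraries had already shown for them, so that their levels and fold changes are a description and carry no test. Tests were kept for other genes, namely the remaining zinc transporters and 5 lists of related genes.

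The libraries came from explanted lens epithelia of mice at 3 weeks of age, with 3 libraries from wild-type (WT) mice, 3 from OVE853 and 4 from OVE918. OVE853 and OVE918 are homozygous transgenic families on the FVB/N background, in which the murine αA-crystallin promoter drives a secreted, constitutively active human TGF-β1 in the lens, and the WT mice shared that background. Each library was a pool, of explants from up to 9 mice in WT and OVE853 and up to 7 mice in OVE918, and explants of the transgenic lines carried an anterior subcapsular plaque. The whole epithelium was sequenced, so that in these bulk samples fewer cells of a type and less RNA per cell cannot be told apart.

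Library totals ranged from 24073311 to 31908525 counts on genes. Levels are given as CPM, which are counts scaled to a common library size with TMM factors, and comparisons between genes as FPKM, which also divides by exon length. Tgfb1 averaged 54.3 ± 6.41 CPM over the WT libraries (SD, n = 3), with 350 ± 11.3 for OVE853 (SD, n = 3) and 775 ± 78.0 for OVE918 (SD, n = 4). FDR stands throughout for the Benjamini-Hochberg adjusted p of the edgeR quasi-likelihood test over all genes tested, and for Tgfb1 it was 7.08e-07 in OVE853 and 1.03e-07 in OVE918. All 8 lens epithelial markers were detected, and their sum, led by Cryaa in every library with 73.3% to 78.0% of it, was 153931 to 159029 CPM for WT, 103995 to 118531 for OVE853 and 128378 to 195799 for OVE918. Every OVE853 sum thus lay below every WT sum, and Gja1, one of the 8, averaged 543 CPM over WT, 110 CPM over OVE853 and 65.7 CPM over OVE918 libraries. WT replicate 3 stood apart by its retinal neuron markers, which summed to 950 CPM against 97.4 and 118 CPM in the other WT libraries and 24.9 to 139 CPM in the transgenic ones. Results that rest on this library are therefore given with and without it.

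Metallothioneins are small proteins that hold zinc and copper ions through many cysteine residues. Mt1 and Mt2 are induced by metals, glucocorticoids and cytokines of the IL-6 family, whereas Mt3 is known mainly from the nervous system. MTF-1, the product of Mtf1, binds metal response elements in promoters when free zinc rises, and Mt1, Mt2 and Slc30a1 are among its known targets. Exporters of the SLC30 family move zinc out of the cytosol and importers of the SLC39 family move it in, and the SLC39A14 protein also carries iron and manganese.

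Mt1 lies on chromosome 8 of GRCm39 from 94905710 to 94906955, 5502 bases past Mt2 (94898819 to 94900207), which in turn lies 17730 bases past Mt3 (94879220 to 94881088). All are read from the plus strand. The coding sequences of Mt1 and Mt2, spread over 3 exons each, are shown because the reads of this near neighbour pair had to be told apart, with in-frame cysteine codons in capitals (GENCODE vM39).
Mt1: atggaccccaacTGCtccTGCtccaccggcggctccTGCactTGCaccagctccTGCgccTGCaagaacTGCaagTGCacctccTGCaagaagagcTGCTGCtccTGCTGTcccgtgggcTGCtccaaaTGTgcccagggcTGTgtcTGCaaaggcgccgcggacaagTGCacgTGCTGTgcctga
Mt2: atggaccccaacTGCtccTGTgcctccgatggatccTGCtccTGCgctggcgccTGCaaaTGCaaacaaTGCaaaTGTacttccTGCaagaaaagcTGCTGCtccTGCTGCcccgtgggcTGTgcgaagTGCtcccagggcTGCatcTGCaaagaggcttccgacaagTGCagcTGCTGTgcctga
Both hold 61 codons before the stop, of which 20 (32.8%) encode cysteine, and Mt3 holds 68 codons with the same 20 cysteines. Mt1 and Mt2 shared 148 of 186 aligned coding bases (79.6%), and Mt1 and Mt3 shared 68.9%. The longest identical run between any annotated transcripts was 20 bases for Mt1 and Mt2 and 27 bases for Mt1 and Mt3, shorter than the sequenced reads. Counts of processed copies elsewhere in the genome were not examined.

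The 250 bases before the annotated start of Mt1, Mt2 and Slc30a1 are shown with matches to the core of the metal response element in capitals. These genes are among the known targets of MTF-1. The annotated starts were not checked against the starts used in these libraries, so that response elements further downstream can fall outside the 250 bases. The core was searched as TGCACNC or TGCGCNC on either strand, in RefSeq promoter windows of build GRCm38.p6, a different build from that of the gene positions above. The windows are chr8:94178839-94179088 for Mt1, chr8:94172368-94172617 for Mt2 and chr1:191906531-191906780 for Slc30a1, all on the plus strand.
Mt1: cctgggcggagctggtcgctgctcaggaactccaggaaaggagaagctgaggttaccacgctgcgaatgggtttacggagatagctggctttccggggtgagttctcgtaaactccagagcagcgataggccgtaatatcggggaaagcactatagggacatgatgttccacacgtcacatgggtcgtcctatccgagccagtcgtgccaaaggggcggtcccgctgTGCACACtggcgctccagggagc
Mt2: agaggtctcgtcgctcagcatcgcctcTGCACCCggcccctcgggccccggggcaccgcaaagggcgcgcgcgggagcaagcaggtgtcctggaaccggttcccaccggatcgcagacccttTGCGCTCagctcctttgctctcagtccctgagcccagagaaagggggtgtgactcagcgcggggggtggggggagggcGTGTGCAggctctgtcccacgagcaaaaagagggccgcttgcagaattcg
Slc30a1: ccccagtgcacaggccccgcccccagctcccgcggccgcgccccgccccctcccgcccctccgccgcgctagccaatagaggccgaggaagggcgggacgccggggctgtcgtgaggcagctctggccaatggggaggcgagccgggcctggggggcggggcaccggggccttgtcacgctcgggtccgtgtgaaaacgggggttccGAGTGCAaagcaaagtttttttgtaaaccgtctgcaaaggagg
Mt1 had 1 match, from 23 to 17 bases before the start. Mt2 had 3 separate matches, the nearest from 50 to 44 bases before the start, and Slc30a1 had 1, from 43 to 37 bases before it. Windows of Mt3, Mtf1 and Slc39a10 had 0 matches, and Slc39a14 had no window in the table. Of 32851 promoter windows, 21.4% held at least 1 match and 0.77% at least 3. In the whole 300-base windows, which run past the start, Mt1 had 3 separate matches, Mt2 had 4, Slc30a1 had 2 and Mt3 had 1, and 1.31% of all windows held at least 3.

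Mt1 was the most abundant of the 7 genes in WT and was reduced in every transgenic library. Its level was 63.8, 47.6 and 62.9 CPM in the WT libraries, 6.28, 8.34 and 3.17 CPM in the OVE853 libraries, and 9.21, 5.29, 6.09 and 16.6 CPM in the OVE918 libraries. The highest transgenic library, OVE918 replicate 4, lay well below the lowest WT library, and the groups did not overlap. Group means were 58.1 ± 9.11 CPM in WT (SD, n = 3), 5.93 ± 2.60 in OVE853 (SD, n = 3) and 9.29 ± 5.14 in OVE918 (SD, n = 4). Relative to WT, the log2 fold change was -3.29 (standard error 0.47) in OVE853, a 9.81-fold lower level, and -2.65 (standard error 0.41) in OVE918, a 6.29-fold lower level. These were the 9th and the 36th lowest fold changes among the 11094 genes. Leaving out WT replicate 3 gave -3.23 and -2.60.

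**Figure D1:**
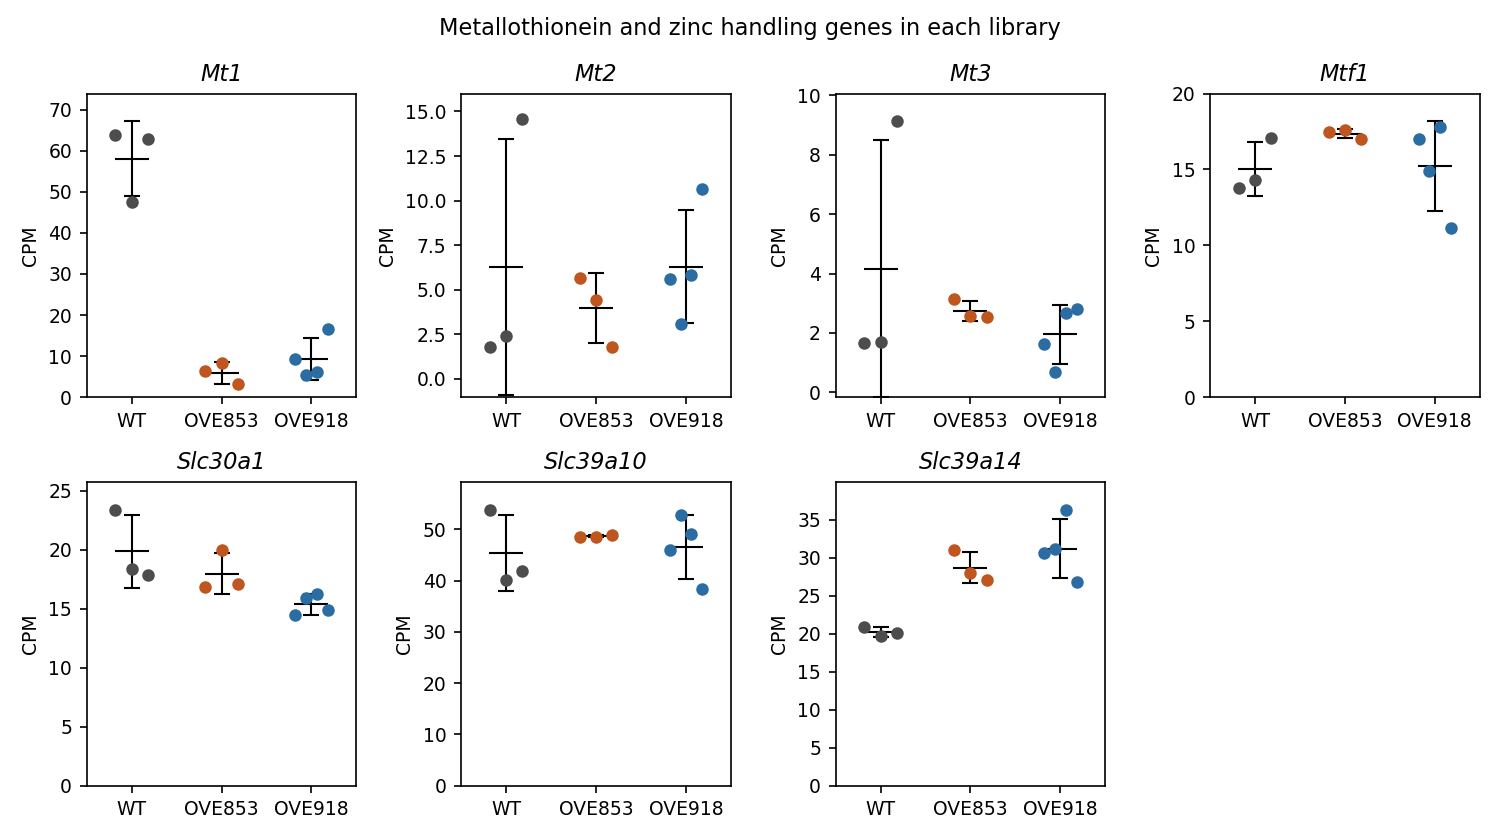
CPM of the 7 genes, with 1 point per library, the horizontal bar at the group mean and the error bar at 1 SD (n = 3, 3 and 4). Mt1 sits between 47.6 and 63.8 CPM in WT and between 3.17 and 16.6 CPM in all transgenic libraries, and the spread of Mt2 and Mt3 in WT comes from replicate 3.

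Mt2 did not follow its neighbour. Its level was 1.79, 2.42 and 14.6 CPM in WT, 5.65, 4.45 and 1.80 CPM in OVE853, and 5.61, 3.09, 5.83 and 10.7 CPM in OVE918. The groups overlapped, with WT replicate 3 the highest of all 10 libraries and WT replicate 1 the lowest. Relative to WT, its log2 fold change was -0.67 (standard error 0.79) in OVE853 and -0.01 (standard error 0.73) in OVE918. Without WT replicate 3 these became 0.91 (standard error 0.55) and 1.56 (standard error 0.53), so that a single library set the direction. With that library left out, 6 of the 7 transgenic libraries lay above both WT libraries, and OVE853 replicate 3, at 1.80 CPM, lay between them.

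Mt3 behaved in a like manner. It stood at 1.65, 1.69 and 9.15 CPM in WT, at 3.14, 2.56 and 2.52 CPM in OVE853, and at 1.63, 0.67, 2.68 and 2.81 CPM in OVE918. Once more WT replicate 3 was far above the rest, and the groups overlapped. The log2 fold change of Mt3 was -0.62 (standard error 0.65) in OVE853 and -1.12 (standard error 0.62) in OVE918, and without WT replicate 3 it was 0.71 and 0.21. The retinal neuron markers of WT replicate 3 given above were high in the same library, and their part in the Mt2 and Mt3 levels was not tested. Mt4, the remaining gene of the cluster, had 1 count in WT replicate 3 and 0 counts in the other 9 libraries.

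The make-up of the metallothionein transcripts also differed between WT and the lines. Mt1, Mt2 and Mt3 summed to 68.5 ± 17.5 CPM for WT (SD, n = 3), 12.6 ± 4.46 for OVE853 (SD, n = 3) and 17.5 ± 8.91 for OVE918 (SD, n = 4). Mt1 took 94.9% of the summed counts in WT replicate 1 (exact 95% binomial interval 93.6% to 95.9%), 92.0% in replicate 2 and 72.6% in replicate 3 (exact interval 70.8% to 74.4%). In the transgenic libraries it took between 41.7% and 58.4%, below all WT libraries, and the highest of these, OVE918 replicate 2, had an exact interval of 52.0% to 64.7%. The intervals cover counting error only. Mt1 counts were 35.7, 19.6 and 4.32 times the Mt2 counts in the WT libraries, against 1.11 to 1.88 times in OVE853 and 1.04 to 1.71 times in OVE918. This ratio is free of library scaling, since both genes are read in the same library.

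**Figure D2:**
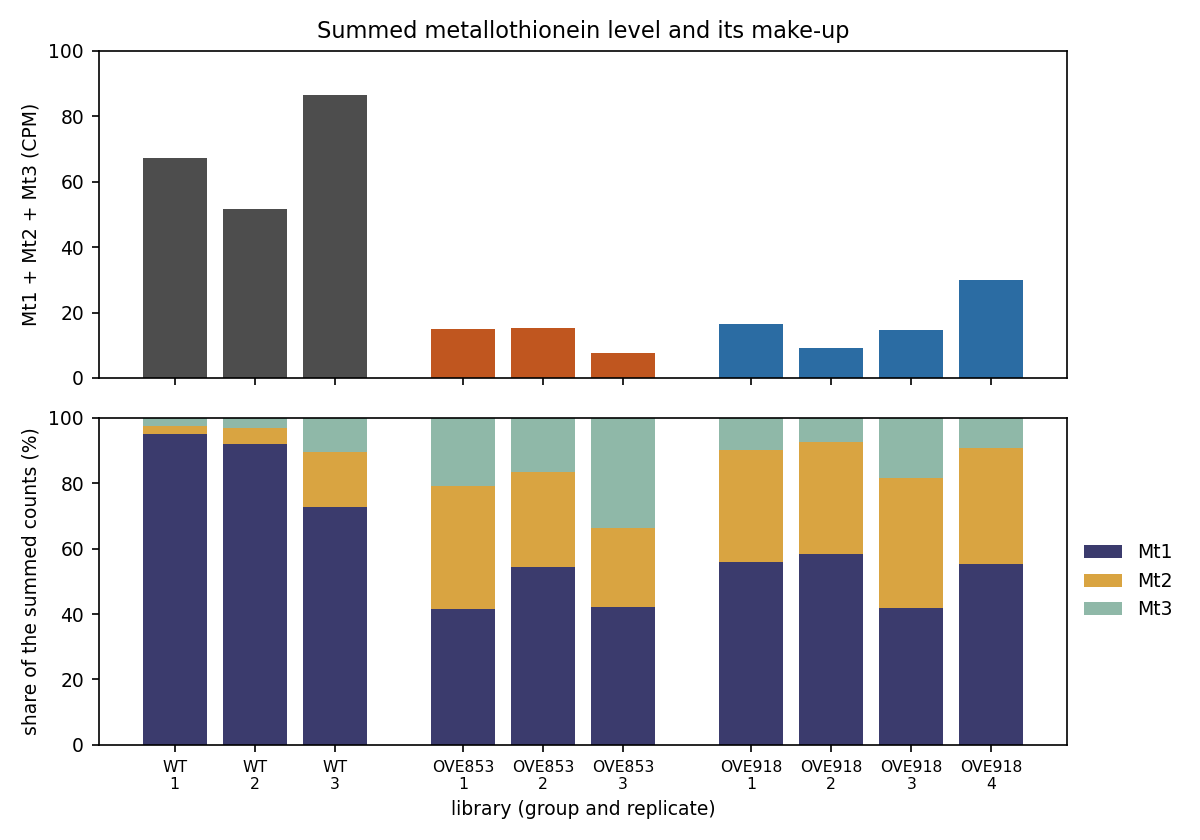
Upper panel, summed CPM of Mt1, Mt2 and Mt3 in each library; lower panel, the percentage of their summed counts that each gene took. Mt1 takes 72.6% to 94.9% in WT and 41.7% to 58.4% in the transgenic libraries, and every transgenic library has a lower summed level than every WT library.

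Mtf1, the zinc sensor, differed little between the groups. It lies on chromosome 4 from 124695897 to 124743593, and its level was 13.8, 14.3 and 17.0 CPM in WT, 17.5, 17.6 and 17.0 CPM in OVE853 and 17.0, 14.9, 17.8 and 11.2 CPM in OVE918. The OVE853 libraries lay close together near the highest WT library, and OVE918 spanned the WT range on both sides. Its log2 fold change was 0.21 (standard error 0.16) in OVE853 and 0.02 (standard error 0.15) in OVE918. At 1.89 ± 0.22 FPKM in WT (SD, n = 3) the gene stood near the filter of 2 FPKM, and it was not tested where that minimum was required in 6 libraries, nor when WT replicate 3, any OVE853 library or OVE918 replicate 3 was left out.

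Slc30a1, the exporter of the plasma membrane, was slightly lower in OVE918. It lies on chromosome 1 from 191638808 to 191645361, with 23.4, 18.4 and 17.8 CPM in WT, 16.8, 19.9 and 17.1 CPM in OVE853 and 14.4, 15.9, 16.3 and 14.9 CPM in OVE918. All OVE918 libraries lay below all WT and all OVE853 libraries, whereas OVE853 overlapped WT. The log2 fold change was -0.14 (standard error 0.12) in OVE853 and -0.37 (standard error 0.12) in OVE918, a level 1.29-fold lower. Without WT replicate 1, the highest library, the difference in OVE918 shrank to -0.24.

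The importer Slc39a14 stood higher in both lines. It lies on the minus strand of chromosome 14 from 70540678 to 70588914 and stood at 20.9, 19.6 and 20.1 CPM in WT, at 30.9, 27.9 and 27.1 CPM in OVE853 and at 30.5, 31.1, 36.3 and 26.8 CPM in OVE918. The WT libraries were tightly grouped and every transgenic library lay above them. The log2 fold change was 0.50 (standard error 0.11) in OVE853, 1.42-fold, and 0.63 (standard error 0.11) in OVE918, 1.54-fold, so that neither reached 2-fold. With any 1 library left out it ran from 0.44 to 0.54 in OVE853 and from 0.55 to 0.69 in OVE918.

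Slc39a10, a zinc importer on the minus strand of chromosome 1 (46845872 to 46964964), showed no such shift. Its level was 53.8, 40.2 and 41.9 CPM in WT, 48.5, 48.6 and 48.8 CPM in OVE853 and 45.9, 52.9, 49.1 and 38.3 CPM in OVE918. OVE853 lay inside the WT range, and OVE918 reached slightly below it with replicate 4. The log2 fold change was 0.10 (standard error 0.14) in OVE853 and 0.04 (standard error 0.13) in OVE918.

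At an FDR of at most 0.05 and a fold change of at least 2, the limits used for every call here, 1 of the 7 members (Mt1) was called in OVE853 against 4.43% of all genes tested. In OVE918 it was again 1 of 7 against 5.59%, and between OVE918 and OVE853 it was 0 of 7 against 0.487%. Libraries of OVE853 and WT did not overlap for 2 of the 7 members, as for 45.4% of all genes, and those of OVE918 and WT for 3 of 7, as for 27.2%. The members' choice used these contrasts, so that nothing is read from these counts, and both lines were compared with the same WT libraries. Between the lines, the log2 fold change of OVE918 over OVE853 was 0.64 (standard error 0.42) for Mt1, 0.66 (standard error 0.75) for Mt2 and -0.50 (standard error 0.63) for Mt3. For the other members it lay between -0.22 for Slc30a1 and 0.12 for Slc39a14.

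Compared per exon length, Mt1 led the members in WT with a mean of 76.2 FPKM (n = 3) and its libraries did not overlap those of any other member. Mt2 (8.36 ± 9.62 FPKM), Slc39a10 (7.03 ± 1.15), Slc39a14 (3.76 ± 0.12), Slc30a1 (3.76 ± 0.58), Mt3 (3.50 ± 3.63) and Mtf1 (1.89 ± 0.22) followed. Among these neighbours, libraries overlapped in each case except between Slc39a10 and Slc39a14. In OVE853, Mt1 at 7.78 ± 3.42 FPKM (SD, n = 3) was no longer apart from Slc39a10 at 7.55 ± 0.02, and Slc39a14 and Mt2 stood next at 5.34 ± 0.38 and 5.30 ± 2.63. In OVE918, the ranges of Mt1 at 12.2 ± 6.74 FPKM (SD, n = 4), Mt2 at 8.42 ± 4.23, Slc39a10 at 7.22 ± 0.96 and Slc39a14 at 5.81 ± 0.73 each overlapped the next.

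The other zinc transporters were tested as a list. Of 21 SLC30 and SLC39 genes that are not members, 13 passed the filter, and 1 of the 13, Slc30a10, was called in each line, where 4.43% and 5.59% of all genes tested were. Slc30a10 averaged 0.85 FPKM in WT and passed the filter through the transgenic libraries, at 2.61 FPKM in OVE853 and 3.16 in OVE918. Such a gene enters the test because it is high there, so that its call is no evidence of a direction. The product of Slc30a10 is known mainly as a manganese exporter of the plasma membrane. The median log2 fold change of the 13 was 0.19 in both lines, beside -0.01 in OVE853 and 0.01 in OVE918 over all genes tested. With no minimum fold change, 3 of the 13 passed the FDR limit in OVE853, as 15.8% of all genes did, and 5 of the 13 in OVE918, as 19% did. Each of these was elevated, and Slc39a1, the zinc transporter with the highest FPKM in both lines, was among them in both lines. Between OVE918 and OVE853, 0 of the 13 were called by edgeR or DESeq2.

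Slc30a10 rose from 6.80, 7.04 and 1.30 CPM in the WT libraries to 14.3, 19.6 and 12.4 CPM in OVE853 and 16.1, 23.1, 16.9 and 18.6 CPM in OVE918. Every transgenic library was above every WT library. Its log2 fold change was 1.62 (standard error 0.47) in OVE853 (FDR = 0.0462, edgeR) and 1.90 (standard error 0.46) in OVE918 (FDR = 0.0177, edgeR). Part of its size came from the low WT replicate 3, without which the log2 fold changes were 1.15 and 1.43, both still called. The call in OVE853 was lost in 10 of 17 alternatives.

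Slc39a1 averaged 112 ± 14.8 CPM over WT libraries (SD, n = 3), 177 ± 4.54 in OVE853 (SD, n = 3) and 176 ± 11.6 in OVE918 (SD, n = 4). The rise was 1.57-fold in both lines, with FDR = 0.00292 in OVE853 and FDR = 0.00121 in OVE918, both from edgeR. Slc39a6, an importer of the same branch as Slc39a10, rose 1.43-fold in OVE853 (FDR = 0.00741, edgeR) and 1.27-fold in OVE918 (FDR = 0.0262). Slc30a7, which loads zinc into the secretory pathway, rose 1.64-fold in OVE918 (FDR = 0.0252, edgeR) and stood 1.46-fold higher in OVE853, where it missed the FDR limit (FDR = 0.0881). Without WT replicate 3, Slc39a1 was 1.47-fold higher in both lines, still within the FDR limit. Slc39a6 was then 1.39-fold higher in OVE853 (FDR = 0.0185, edgeR) and 1.24-fold in OVE918, where it missed the limit (FDR = 0.0764). Slc30a7 stood at 1.25-fold in OVE853 and 1.41-fold in OVE918 (FDR = 0.0399, edgeR). These 3 genes were picked for mention after their values were seen.

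**Figure D3:**
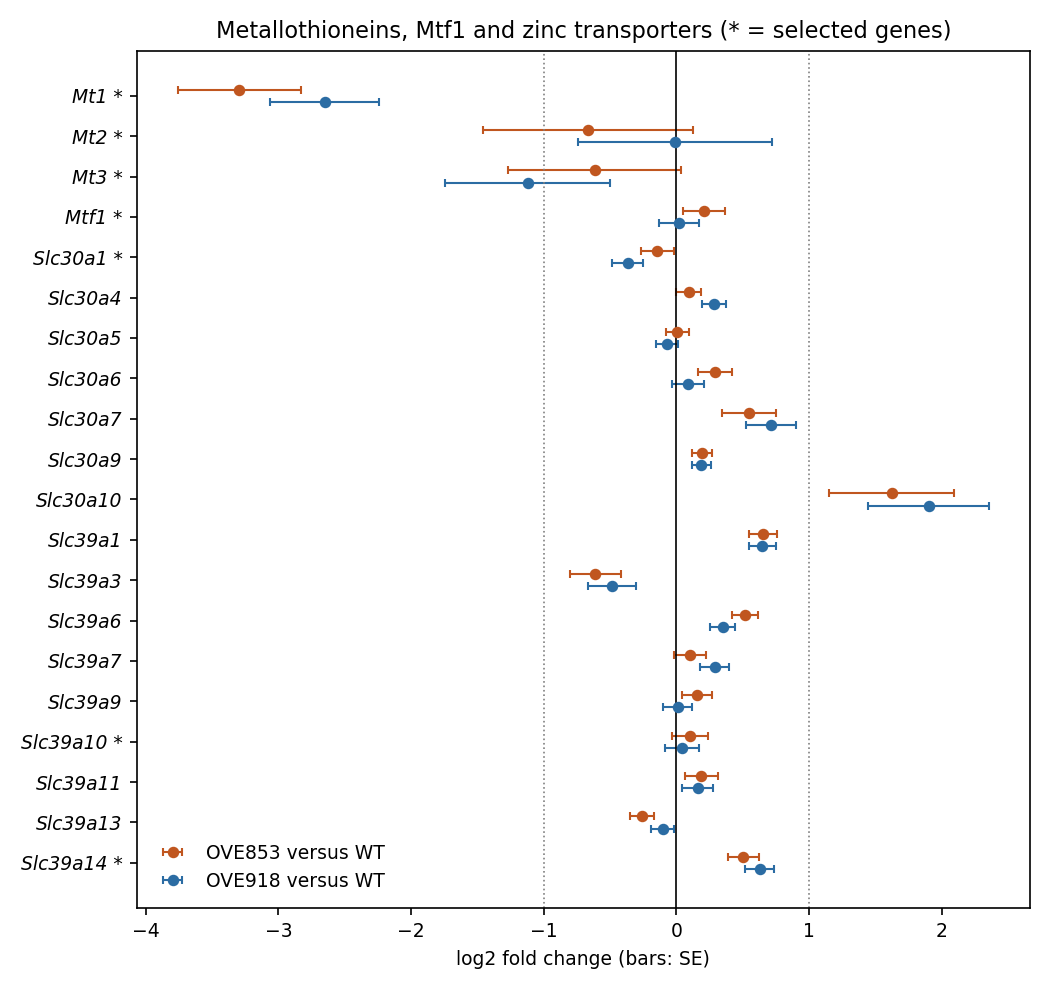
Log2 fold change over WT in OVE853 and OVE918, with bars of 1 standard error, for the tested metallothioneins, Mtf1 and zinc transporters; an asterisk marks the 7 members and dotted lines mark 2-fold. Mt1 lies far to the left at -3.29 and -2.65, Slc30a10 to the right at 1.62 and 1.90, and the remaining transporters lie within 2-fold.

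Slc39a12, a zinc importer known from the brain, was not among the tested genes. A gene above 2 FPKM in WT alone cannot reach the minimum in 5 libraries, since WT has 3, whereas one above it only in the lines can. Slc39a12 reached 2.13, 2.88 and 3.48 FPKM in WT and at most 0.67 FPKM elsewhere. Its level was 11.9, 16.2 and 19.5 CPM in WT, 3.23 to 3.78 CPM in OVE853 and 1.01 to 1.58 CPM in OVE918, without overlap between any groups. With edgeR's filterByExpr in place of the FPKM minimum it was called in both lines, 4.58-fold lower in OVE853 (FDR = 0.000195) and with a log2 fold change of -3.58 in OVE918 (FDR = 4.31e-06). There the background of called genes was 6.89% and 8.79% of 18058. It was also 2.62-fold lower in OVE918 than in OVE853 (FDR = 0.0322, background 0.244%). This gene was singled out after its values were seen. Markers of non-pigmented ciliary epithelium stepped down in the same order, as given below, and their part in the Slc39a12 result was not tested.

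Genes of the 3 responses known to induce Mt1 were counted next. Of 9 tested glucocorticoid response genes, 1 was called in OVE853 and 2 in OVE918, all reduced, beside 4.43% and 5.59% of all genes tested. Their median log2 fold change was -0.58 and -0.49. Without WT replicate 3 the medians were -0.33 and -0.36, and 1 gene was called in each line. Sgk1, a kinase gene induced by glucocorticoids, fell from a mean of 84.1 ± 28.7 CPM (SD, n = 3 WT libraries) to 9.64 ± 0.97 in the OVE853 libraries (SD, n = 3) and 12.6 ± 2.64 in those of OVE918 (SD, n = 4). OVE853 had a log2 fold change of -3.12 (FDR = 3.97e-05) and OVE918 one of -2.74 (FDR = 1.89e-05), both from edgeR, and without WT replicate 3 it was -2.81 and -2.42. Tsc22d3, which encodes the glucocorticoid-induced leucine zipper protein, was reduced in OVE918 (log2 fold change -1.09, FDR = 0.000298, edgeR), and stood at -0.94 without WT replicate 3, which ended its call. In OVE853 Tsc22d3 changed by -0.81 (FDR = 0.00512), under 2-fold. Fkbp5, another glucocorticoid target picked after its values were seen, had log2 fold changes of 0.04 and -0.22 that missed the FDR limit.

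Of 11 genes of the IL-6 and STAT3 list, 5 were called in OVE853 and 3 in OVE918, all elevated, beside 4.43% and 5.59% of all genes tested. The median log2 fold changes were 1.22 and 1.30. Without WT replicate 3 the medians were 1.70 and 1.59, and 4 genes were called in each line, Cebpd among them in OVE918. With all libraries, Socs3, Il6st, Cebpd, Cebpb, Junb and Pim1 missed the FDR limit in both lines, and Pim1 had negative log2 fold changes, of -0.48 and -0.38. Macrophage markers summed to 16.7 to 40.5 CPM for WT, 43.6 to 67.4 for OVE853 and 28.5 to 74.0 for OVE918, with 3 of 8 tested and 0 called in OVE853 and 1 in OVE918, and their part in the IL-6 and STAT3 counts was not tested. Bcl3, an IκB family member, rose from a mean of 0.61 ± 0.15 CPM (SD, n = 3 WT libraries) to 21.8 ± 3.24 in OVE853 (SD, n = 3; FDR = 7.08e-07, edgeR) and 18.4 ± 3.24 in OVE918 (SD, n = 4; FDR = 1.15e-06, edgeR). It averaged 0.30 FPKM in WT and, like Slc30a10, passed the filter through the transgenic libraries. Serpina3n, an acute-phase protease inhibitor, rose 14.8-fold in OVE853 (FDR = 2.64e-06, edgeR) and 20.8-fold in OVE918 (FDR = 1.15e-06). Osmr, the oncostatin M receptor, rose 4.62-fold (FDR = 0.000485, edgeR) and 4.07-fold (FDR = 0.000369). It averaged 1.64 FPKM in WT and likewise passed the filter through the transgenic libraries. Stat3 rose 2.15-fold in OVE853 (FDR = 0.00016) and 1.87-fold in OVE918 (FDR = 0.000231), the latter under 2-fold. Lcn2, which encodes the iron-binding protein lipocalin 2, was called in OVE853 (4.35-fold, FDR = 0.0473) and lost that call in 9 of 17 alternatives. Several of these genes were already known to be elevated in these libraries when the list was written, so that the count is no independent evidence of a direction.

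Of 8 tested NRF2 targets, which answer oxidative stress, 0 were called in either line by edgeR, and 2 in each line passed the FDR limit with a smaller rise. Gclm, a subunit of the enzyme that starts glutathione synthesis, rose 1.90-fold in OVE853 (FDR = 0.000128, edgeR) and 1.86-fold in OVE918 (FDR = 6.34e-05). It was picked after its values were seen. Slc7a11, the remaining gene of the list and a subunit of the cystine importer that feeds glutathione synthesis, was removed by the FPKM minimum in the same way as Slc39a12. It stood at 85.7, 128 and 161 CPM in WT, 13.7 to 19.0 CPM in OVE853 and 5.54 to 10.4 CPM in OVE918, so that no transgenic library reached the WT range. With filterByExpr it was called as 7.69-fold lower in OVE853 (FDR = 0.00015, edgeR) and 14.4-fold lower in OVE918 (FDR = 9.77e-06), and was likewise singled out afterwards.

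Copper and iron genes were counted because metallothioneins also bind copper and SLC39A14 also carries iron. Of 8 copper genes tested, 1 was called in OVE853 and 0 in OVE918 by edgeR, beside 4.43% and 5.59% of all genes tested. Cp, the copper-carrying ferroxidase ceruloplasmin, averaged 896 ± 114 CPM over WT libraries (SD, n = 3), 1969 ± 125 over OVE853 (SD, n = 3) and 1528 ± 114 over OVE918 (SD, n = 4). It rose 2.20-fold (FDR = 0.000222, edgeR) and 1.71-fold (FDR = 0.00104). Of 12 iron genes tested, 0 were called in OVE853 and 2 in OVE918, both reduced. Steap3, a ferric reductase gene under the FPKM minimum, was called with filterByExpr as 3.68-fold lower in OVE853 (FDR = 0.0191, edgeR) and 3.97-fold lower in OVE918 (FDR = 0.00632), and was picked afterwards. Cybrd1, a ferric reductase, had a log2 fold change of -1.81 in OVE918 (FDR = 0.000162, edgeR) and -0.96 in OVE853 (FDR = 0.0152, under 2-fold). Heph, the membrane ferroxidase hephaestin, had -1.15 in OVE918 (FDR = 0.000349, edgeR), and averaged 96.4 ± 19.3 CPM over WT libraries (SD, n = 3), 68.0 ± 3.86 in OVE853 (SD, n = 3) and 43.3 ± 6.53 in OVE918 (SD, n = 4).

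Over all 60 tested genes of these lists, 8 were called in each line, beside 4.43% of all genes in OVE853 and 5.59% in OVE918. Beside these shares, 1 called gene in a list of 8 to 13 is no result about the list. Between OVE918 and OVE853, 0 of the 60 were called by edgeR and 0 by DESeq2, while 12 had an unadjusted p under 0.05 in edgeR.

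The genes whose profile over the 10 libraries was nearest to that of Mt1 were found by the root mean square difference of log2 CPM, each gene centred on its own mean. The nearest of all 11094 was Sgk1, at 0.57 log2 units, followed by Thrsp (0.59), R3hdml (0.61), 7530428D23Rik (0.62) and Ptgds (0.66), where Mt1 itself had an SD of 1.5 over the libraries. Ptgds encodes prostaglandin D2 synthase, and Thrsp a regulator of lipid synthesis. All 5 were called as reduced in both lines. They were chosen by likeness to Mt1, so that these calls follow from the choice and add no support. Nearest to Mt2 were Faim2 (0.47), Eno2 (0.48) and Crym (0.50), of which Faim2 and Eno2 are known as neuronal genes, and their levels in WT replicate 3 were above those of the other WT libraries. Faim2, for example, stood at 26.9 and 26.7 CPM in WT replicates 1 and 2 and at 128 CPM in replicate 3, and 0 of the 3 were called in either line by edgeR. Nearest to Slc39a14 were Zfp143 (0.06), Mfap3l (0.08), Syt11 (0.10), Ivns1abp (0.10) and Cald1 (0.11), against an SD of 0.29 for Slc39a14. The same genes were found for each with a prior count of 0.5 or with DESeq2 size factors. These distances are descriptions over 10 libraries that share group differences and depth.

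**Figure D4:**
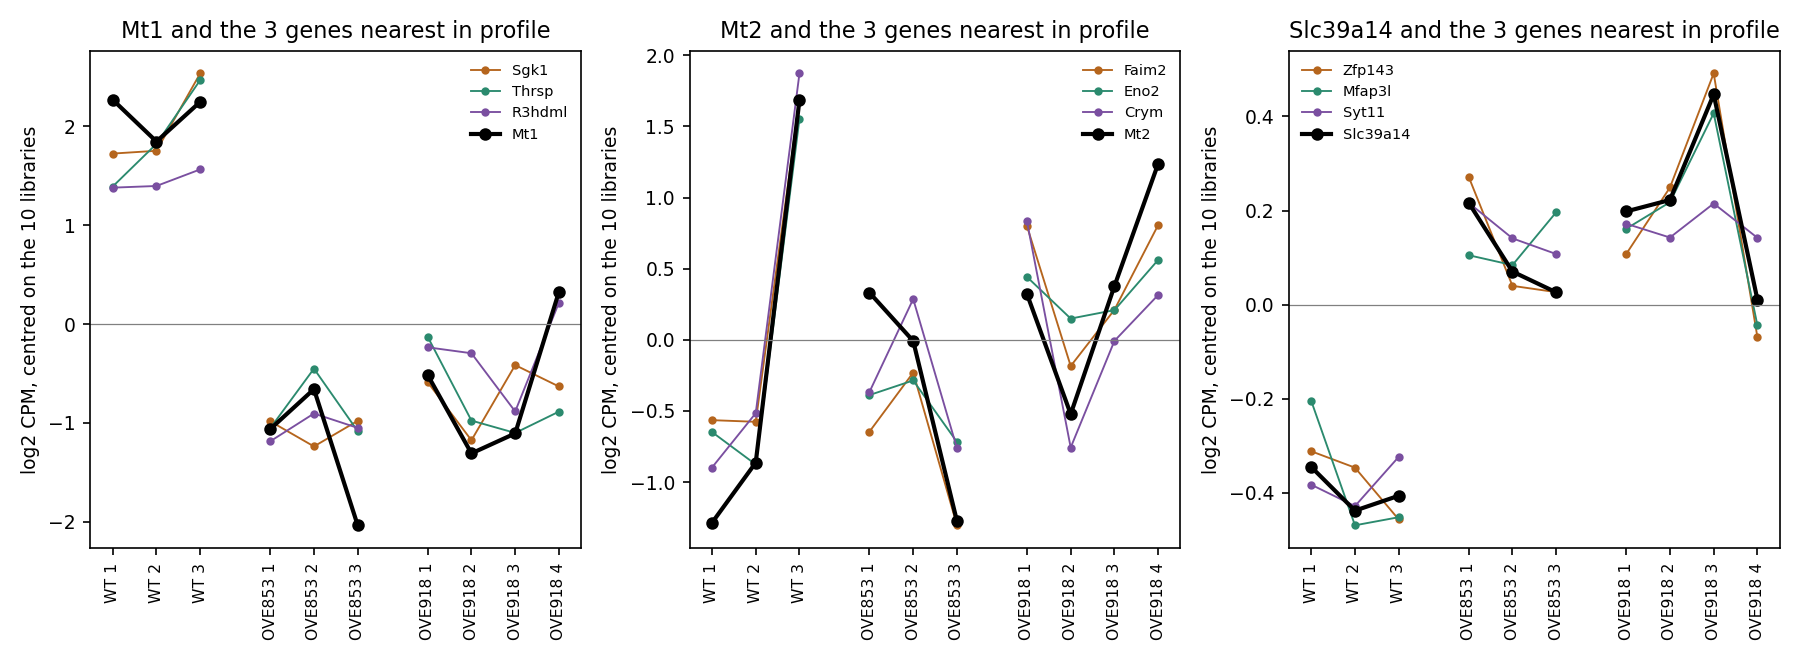
Log2 CPM centred on the mean of the 10 libraries, for Mt1, Mt2 and Slc39a14 (black) and the 3 genes nearest to each (coloured); lines join libraries of a group only to guide the eye. Mt1 and its neighbours step down from WT to both lines, Mt2 and its neighbours peak in WT replicate 3, and Slc39a14 and its neighbours step up.

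Around the metallothionein cluster, 14 further protein-coding genes lie within 500 kb on chromosome 8, of which 11 were tested. Of the 11, 1 was called in each line, beside 4.43% and 5.59% of all genes, namely Cpne2 in OVE853 and Gnao1 in OVE918. Cpne2 rose by a log2 fold change of 1.17 in OVE853 (FDR = 0.000851, edgeR) and by 0.86 in OVE918 (FDR = 0.00249). Gnao1, a G protein subunit gene known from neurons, fell by 1.65 (standard error 0.50) in OVE918 (FDR = 0.0495, edgeR) and stood at -1.76 in OVE853 (FDR = 0.0608). Its values without WT replicate 3 are not given here. Nup93, the next tested gene past Mt1, had log2 fold changes of -0.25 in OVE853 (FDR = 0.101, edgeR) and -0.43 in OVE918 (FDR = 0.00724). Bbs2, the next on the far side, had -0.18 (FDR = 0.427) and -0.45 (FDR = 0.0523). Under 2-fold, Herpud1 (-0.64, FDR = 0.0124) and Ogfod1 (-0.48, FDR = 0.049) also passed the FDR limit in OVE853. The median of the 11 was -0.23 in OVE853 and -0.21 in OVE918, with values from -1.76 to 1.17 and from -1.65 to 0.86. These genes were named after their values were seen. Mt1 was chosen by its own values, and a cause shared across the region was not tested.

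**Figure D5:**
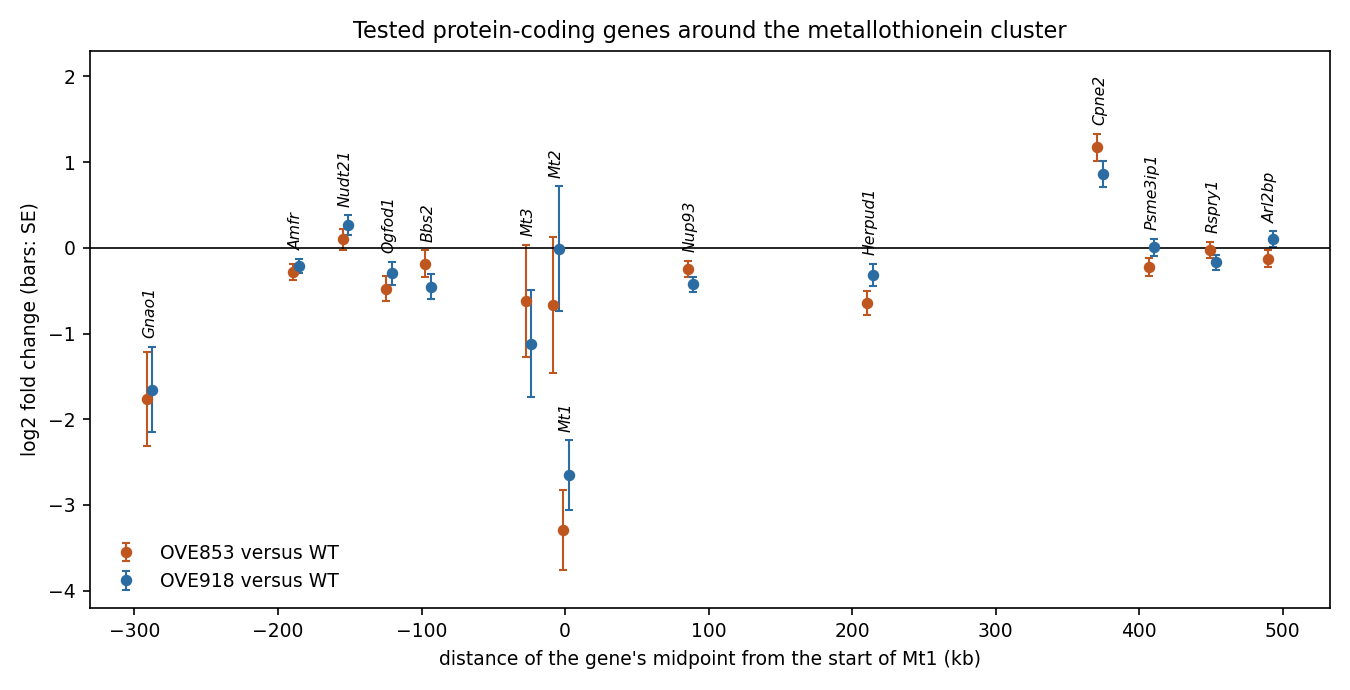
Log2 fold change over WT with bars of 1 standard error for tested protein-coding genes, plotted by the distance of the midpoint of each gene from the start of Mt1. Mt1 stands at -3.29 and -2.65 in OVE853 and OVE918, Nup93 at -0.25 and -0.43, and Gnao1 at -1.76 and -1.65.

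Summed markers of ciliary epithelium, Müller glia and cornea were, like Mt1, lower in both lines than in WT. Between the lines, ciliary sums were lower in OVE918 than in OVE853. Müller glia sums were higher in OVE918 than in OVE853, as was the mean of Mt1. Within WT, Mt1 stood at 63.8, 47.6 and 62.9 CPM in replicates 1 to 3. There the ciliary sums were 938, 514 and 394 CPM, the cornea sums 239, 944 and 1630 CPM, and the Müller glia sums 4181, 3729 and 5696 CPM. Photoreceptor markers were not lower in the lines, with sums of 7.77 to 28.4 CPM for WT, 16.4 to 33.7 for OVE853 and 23.1 to 46.2 for OVE918. Over all genes tested, 4.43% were called in OVE853 and 5.59% in OVE918. For non-pigmented ciliary epithelium, 5 of 7 markers were tested, and 3 were called as reduced in OVE853 and 5 in OVE918. The ciliary list summed to between 394 and 938 CPM in WT, 212 and 242 CPM in OVE853 and 56.9 and 109 CPM in OVE918. Opn5, one of these markers, was at 0 in all transgenic libraries, but stood at only 0.035 to 0.089 CPM in WT and was not tested. For Müller glia, 6 of 8 were tested, with 4 reduced and 1 elevated in OVE853 and 3 reduced and 1 elevated in OVE918, and summed levels of 3729 to 5696, 2504 to 2865 and 3008 to 3592 CPM. For cornea, 1 of 6 markers was tested and reduced in both lines, with sums of 239 to 1630 CPM in WT and 27.3 to 95.4 CPM in the lines, where Krt12 was at 0 throughout. In WT, Krt12 stood at 0.65 to 4.91 CPM, and it was not tested. Each sum was led by a single gene, Col9a1, Dkk3 and Aldh3a1 in turn. The part of these tissues in the Mt1, Sgk1 and Slc39a12 results was not tested. In WT replicate 3, where retinal neuron markers were highest, Mt1 stood at 62.9 CPM, and the part of retinal tissue in the Mt1 level was not tested.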

How the data were processed

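RNA of pooled lens epithelial explants was sequenced as paired reads in 10 libraries. Per the labels and the paper's methods, adapters were removed with cutadapt 5.2 and reads placed on GRCm39 by STAR 2.7.11b, and the authors counted read pairs on RefSeq exons with featureCounts 2.0.8, reverse-stranded and without its option for multi-mapping reads. The deposited values are raw counts per gene for 50763 genes.

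Here counts were scaled by TMM and fitted over the 3 groups with edgeR 4.0.16 in R 4.3.3 (quasi-likelihood test, robust dispersions, Benjamini-Hochberg adjustment over all genes tested). The authors used edgeR 4.6.3. Genes with at least 2 FPKM in 5 of 10 libraries were tested, with exon lengths from GENCODE vM39, where 43252 genes matched by symbol and 22 by synonym. A gene was called at an FDR up to 0.05 with a log2 change of 1 or more in size. Members and lists were chosen with earlier results of these data known. Genes outside the members are named where called in a line, at most 5 a list, or where nearest in profile, and others are marked as picked afterwards. Near Mt2, only the 3 nearest genes are given, and a further result is not reported here. Alternatives were DESeq2 1.42.0, its size factors, other filters, fewer groups, a replicate block, a smaller prior count, FDR alone and leaving out each library. The fit was tested on simulated data. Libraries are pools, so that p-values measure the spread between pools.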

Additional observations from a re-analysis of the deposited data

Results flagged for a closer look

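In OVE918, the level of Thrsp had 1 library far from the others. It was 4.88 CPM in replicate 1 against 2.45 to 2.86 CPM in the other 3, a gap of 0.8323 of the group's range, above Dixon's 95% limit for 4 samples. Of 36 such groups of 4 libraries examined this was 1, and chance marks about 1 group in 20.

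Tgfb1 differed between the lines. Its log2 fold change of OVE918 over OVE853 was 1.15 (FDR = 0.00388, edgeR, Benjamini-Hochberg adjusted), with all 4 OVE918 libraries above all 3 OVE853 libraries. Counts on the mouse gene do not separate the human transgene from the endogenous transcript.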

How the results depend on the processing

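Of 339 member values under the alternatives, 335 moved by less than the spread between replicates and 4 moved further, all of them without WT replicate 3, for Mt2 (0.91 in OVE853, 1.56 in OVE918) and Mt3 (0.71 and 0.21). Mt1 stayed within the limits of a call in both lines under every alternative run, which is a description, since its choice used these libraries. Its log2 fold changes ran from -3.61 to -3.00 in OVE853 and from -3.08 to -2.45 in OVE918 when 1 library was left out. In all 21 values changed sign, these 4 and otherwise those of Mt2, Mtf1 and Slc39a10, whose reported values in the comparison concerned lay near 0.

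Of the 60 tested list genes, 8 were called in each line. With FDR alone the counts were 17 in OVE853 and 19 in OVE918. Between the lines 0 were called, against 1 with filterByExpr and 1 with no filter (Slc39a12, absent from the main test) and 0 to 1 when 1 library was left out (Cybrd1, without OVE918 replicate 2). Leaving out 1 library gave 6 to 9 in OVE853 and 8 to 10 in OVE918. All genes called numbered 491 in OVE853 and 620 in OVE918, against 1244 and 1587 with filterByExpr, where 18058 genes were tested, 1061 and 1548 with no filter, and 1751 and 2110 with FDR alone. Between the lines, 54 genes were called in all, against 146 with FDR alone, 107 with DESeq2, 97 with only those groups fitted, 28 with a replicate block and 6 to 93 when 1 library was left out.

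Replicate numbers do not pair the libraries: over 9 pairs, the correlation of same-numbered libraries ran from -0.303 to 0.0838. With a replicate block, 8, 8 and 0 list genes were called, and the members called did not change. Counts under about 100, as for Mt2 and Mt3 in some libraries, limit the precision of those ratios.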
